A study of Mus musculus with 209 samples.

Results

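Flot1 and Flot2 encode the flotillins, a pair of membrane scaffold proteins, and were followed here through 209 RNA-seq libraries of sorted mouse immune cells. They are 2 of the 55011 gene symbols in the deposited count table. They were chosen by the log2 fold changes and adjusted p-values of Flot1 with IL6 against PBS: it is among the genes raised in the most cell types of these libraries, and Flot2 is taken with it as the only other flotillin gene. Values with IL6 are therefore given as a description, with no test. Flot1 had between 55 and 4897 counts per library (median 471) and Flot2 between 14 and 3106 (median 307), and both passed the filter on low counts in every fit.

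The libraries came from C57BL/6 mice aged 5 to 8 weeks, with no transgene or deletion named in the labels. Mice received PBS in a volume of 120 µL, or the same volume with 5 µg of interleukin 1 beta (IL1b), interleukin 6 (IL6) or tumour necrosis factor alpha (TNFa), by intravenous injection, and 1000 cells of each type were sorted 2 h later. The screen covers 14 cell types, with 4 or 5 PBS libraries per type and 3 libraries per cytokine. The exceptions have 2 libraries: TNFa in T.8, IL1b in DC.8+ and mast cells, and IL6 in B.fo, NK and mast cells; pDC have no IL1b library. From the peritoneum came mast cells (MC) and macrophages (MFpc). The lymphocytes of the spleen were follicular (B.fo) and marginal zone (MZB) B cells, CD4 (T.4), CD8 (T.8), regulatory (Treg) and gamma-delta (Tgd) T cells, and NK cells. Its myeloid and dendritic cells were neutrophils (GN), monocytes positive for Ly6C (Mo.6C+), macrophages of the red pulp (MFrp), and dendritic cells of the plasmacytoid (pDC) and CD8+ (DC.8+) kinds. A further 20 libraries follow TNFa at 2, 4, 8 and 24 h, with PBS at 24 h, in spleen monocytes and peritoneal macrophages, with 2 libraries per group. The last 6 are spleen monocytes, 3 from mice given 1 ng of lipopolysaccharide (LPS) and 3 from their controls, for which the labels give no time. Whether the libraries of 1 group come from different mice is not said in the labels, so p-values measure the spread between these libraries, which may be technical.

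Flotillins belong to the SPFH family of proteins, with the stomatins, prohibitins and erlins. They carry lipid anchors, sit on the inner face of the plasma membrane and of endosomes, and assemble with each other into oligomers that mark cholesterol-rich membrane domains. In T cells and neutrophils they gather in a cap at the rear of the polarised cell, the uropod, together with sialomucins and ezrin-family proteins. IL6 acts through its receptor and the shared subunit encoded by Il6st, JAK kinases and the transcription factor STAT3, and IL1b and TNFa act largely through NF-kB.

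In the GRCm38 genome (GENCODE M21) Flot1 lies at chr17:35823230-35832791 and Flot2 at chr11:78037931-78060434, both on the plus strand. The promoter table from RefSeq (GRCm38.p6) holds Flot2, so 1 of the 2 members matched. The 250 bases before its start, chr11:78037681-78037930 on the plus strand, are shown because Flot2 is the member whose response is strong in few cell types, and because motifs of the factors these cytokines use can be looked for there. Capitals mark the motif matches that were found.
Flot2: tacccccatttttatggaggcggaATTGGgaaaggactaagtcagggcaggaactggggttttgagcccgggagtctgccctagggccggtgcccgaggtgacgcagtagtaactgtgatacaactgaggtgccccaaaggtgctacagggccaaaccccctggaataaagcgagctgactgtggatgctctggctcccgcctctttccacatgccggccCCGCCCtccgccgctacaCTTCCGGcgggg

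The window was searched on both strands for 5 motifs, which do not overlap each other here. The matches are a CCAAT box that starts 226 bases before the gene and reads ATTGG on the plus strand, a GC box (GGGCGG) that starts 30 bases before it and reads CCGCCC, and an ETS motif (CCGGAAG) that starts 12 bases before it and reads CTTCCGG. The gene Dhrs13, on the same strand, spans chr11:78032280-78037866. Most of the window, with the CCAAT match, therefore lies inside Dhrs13, and the GC box and the ETS motif lie past its end. A match to the CCAAT box is found in 34.5% of 27025 promoter windows of the same length, the GC box in 32.9% and the ETS motif in 7.05%. The STAT motif GAS (TTCNNNGAA), which 7.18% of the windows hold, and the kB motif, which 7.01% hold, have no match in these letters. GC content was 60.8%, against a median of 52% over the windows.

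Libraries had between 1094567 and 9291121 counts (median 4702887). In 13 of 14 cell types, the type's own markers were higher in each of its libraries than in any library of another type. The exception was T.4, whose markers overlapped with Treg. Some libraries stand apart by markers of other cells. In MFrp, the summed level of 7 erythroid markers ran from 1189 to 50210 CPM (counts scaled to the library's size) with PBS and from 1073 to 11220 in the cytokine libraries, with 7 of 7 detected in each group. The summed level of 5 B cell markers in MFrp was 278 to 5640 CPM with PBS and 270 to 3429 with IL1b. It was 106 to 150 with IL6 and 216 to 920 with TNFa (5 of 5 detected in each group). The part of the B cell markers in the MFrp results was not tested. In DC.8+, 5 of 5 NK markers were detected in each group. Their summed level was 42.0 to 392 CPM with PBS, 4.00 to 5.90 with IL1b, 0.604 to 624 with IL6 and 72.3 to 327 with TNFa. The erythroid markers reached 729 CPM in an IL1b library of DC.8+.

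With PBS, Flot1 was highest in neutrophils and mast cells and lowest in B cells. On a common scale over the PBS libraries, its level was 440 ± 53.7 CPM in GN (SD, n = 5), 355 ± 23.6 in MC (n = 4), and 115 ± 13.5 in MFpc and 115 ± 26.0 in Mo.6C+ (n = 5 each). DC.8+ had a mean of 84.1 CPM, MFrp 65.3, T.8 62.9, Tgd 62.8, pDC 56.4, NK 50.6, T.4 36.0, Treg 35.4 and B.fo 20.1. MZB had the lowest level, 18.2 ± 2.72 CPM (n = 4), and the means spanned 24.2-fold. In this order, neighbours were apart in every library at 4 places: GN above MC, MC above MFpc, NK above T.4, and Treg above B.fo. The other 9 of 13 neighbouring pairs overlapped. With plain library totals in place of TMM scaling, MC came first and GN next, so the order of these 2 types rests on the scaling.

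Flot2 followed another order, with peritoneal macrophages first. Its level with PBS was 166 ± 7.55 CPM in MFpc (n = 5), 124 ± 33.4 in Mo.6C+ (n = 5), 88.9 ± 48.3 in GN (n = 5), 73.6 ± 31.7 in MC (n = 4), 71.8 in NK, 71.2 in T.4, 69.2 in MFrp, 55.7 in pDC, 49.3 in DC.8+, 42.5 in Tgd, 35.6 in Treg, 34.8 in T.8, 19.0 in MZB and 11.4 in B.fo. The means spanned 14.5-fold, and 12 of 13 neighbouring pairs overlapped, the exception being T.8 above MZB. With plain library totals the Flot2 means spanned 9.13-fold, and GN went from place 3 to place 8 in the order, with a mean of 57.2 CPM. Both genes were thus lowest in the B cell types, and the plot of PBS levels by cell type shows how far they part in neutrophils and mast cells.

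**Figure D1:**
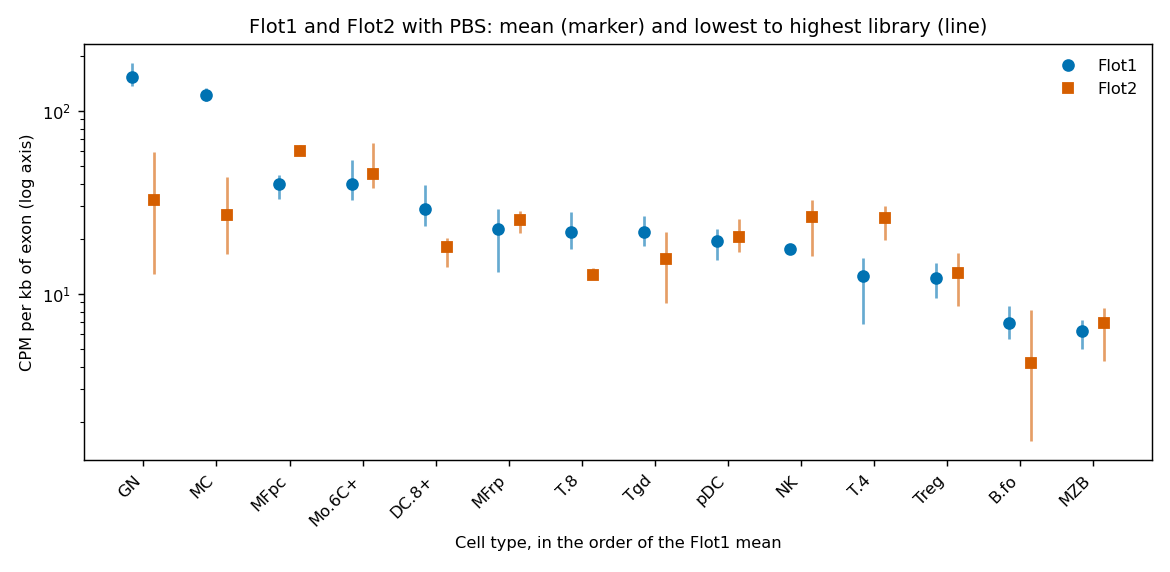
Flot1 and Flot2 with PBS in 14 cell types, as CPM per kb of exon on a log axis, in the order of the Flot1 mean; markers are means and lines run from the lowest to the highest library. Flot1 is highest in GN and MC, Flot2 in MFpc, and both are lowest in MZB and B.fo.

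The genes can be compared with each other only per length of exon (2893 bases for Flot1 and 2740 for Flot2). Per kilobase, Flot1 was above Flot2 in GN (mean 152 against 32.4 CPM per kb) and in MC (123 against 26.9). Flot2 was above Flot1 in MFpc (60.6 against 39.7), T.4 (26.0 against 12.4) and NK (26.2 against 17.5). The ratio of Flot1 to Flot2 per kb with PBS had a median of 5.60 in GN (lowest library 3.08, highest 10.7), 1.53 in DC.8+ and 0.546 in T.4.

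Genes with a pattern most like that of Flot1 over the 14 PBS means were Vps4b (Pearson r = 0.944), an ATPase of the ESCRT machinery, the nuclear RNA Neat1 (0.922), the lipid phosphatase Mtmr6 (0.921), the late endosome GTPase Rab7 (0.913) and the kinesin Kif23 (0.904), among 9596 genes. For Flot2 they were Tspo (0.921), a mitochondrial outer membrane protein, the sialyltransferase St3gal4 (0.896), the integrin-linked kinase Ilk (0.886), the ceramide synthase Cers6 (0.874) and Rer1 (0.868). Flot1 and Flot2 had r = 0.653 with each other. These are descriptions over 14 means that share scaling and sort order, and they carry no p.

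With IL6, Flot1 was higher in all 14 cell types by the fitted value, with log2 fold changes from 0.18 to 1.98 and a median of 1.12, against a median of −0.01 over all gene tests. By the rule that picked it (edgeR, adjusted p under 0.05), it was called raised in 8 of 14 types; 1.46% of all gene tests were called raised by IL6, and among 7971 genes tested in every type 0.0251% reached 8 types. The other gene at 8 types was Stat3, the transcription factor of the IL6 receptor, and no gene was at 7 or 9. Just inside the threshold was Tgd, with a log2 fold change of 0.96, and just outside it T.8, with 1.25. The IL6 libraries all lay above the PBS libraries in 12 of 14 types, the exceptions being NK and B.fo; over all gene tests the share was 6.2%. In the types where Flot1 was called, the share of all genes raised by IL6 was 9.16% in MFpc, 3.78% in Mo.6C+ and 1.61% in T.4. It was 0.387% in MFrp, 0.363% in Treg, 0.0147% in Tgd, 0.137% in pDC and 0.107% in DC.8+. In the types where Flot1 was not called, the share was 5.23% in GN, 0.349% in MC, 0.186% in MZB, 0.183% in B.fo and 0.136% in T.8. In NK it was 0%, and no gene was called lowered there. Nothing is read from these counts, because they chose the gene.

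In Mo.6C+, Flot1 was 119, 92.5, 71.6, 79.1 and 75.2 CPM with PBS and 324, 337 and 370 CPM with IL6, on the scale of that cell type's own fit. The IL6 libraries stand well clear of the PBS libraries, a log2 fold change of 1.98 ± 0.19 (SE). In T.4, the PBS libraries had 52.8, 53.1, 22.9, 44.1 and 37.4 CPM and the IL6 libraries 170, 188 and 120 CPM (1.91 ± 0.20). In Treg, PBS gave 41.4, 40.8, 52.2, 32.8 and 46.6 CPM and IL6 156, 166 and 135 CPM (1.83 ± 0.18). In each of these 3 types every IL6 library was above every PBS library.

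DC.8+ had 99.5, 58.8, 64.3 and 70.2 CPM of Flot1 with PBS and 186, 220 and 172 with IL6 (1.40 ± 0.20). In pDC the values were 64.8, 56.9, 55.7, 45.6 and 64.1 with PBS and 165, 156 and 125 with IL6 (1.38 ± 0.14). MFrp had 51.5, 72.1, 56.8, 74.8 and 35.1 with PBS and 141, 152 and 140 with IL6 (1.31 ± 0.22). No IL6 library of these 3 types came down to its PBS libraries. Smaller differences were fitted in T.8 (1.25 ± 0.24), MFpc (0.99 ± 0.12), Tgd (0.96 ± 0.15) and MZB (0.62 ± 0.22), and the lowest in B.fo (0.37 ± 0.26), MC (0.35 ± 0.13), GN (0.29 ± 0.14) and NK (0.18 ± 0.21). The types with the lowest changes with IL6 came from both ends of the order with PBS. GN and MC had the highest Flot1 with PBS, while B.fo (20.1 CPM) was next to the lowest and NK had 50.6 CPM. These are bulk libraries, so fewer cells that hold the RNA and less of it per cell cannot be told apart.

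Flot2 had its highest log2 fold change with IL6 in neutrophils, and its highest level with IL6 in monocytes. GN libraries had 83.2, 57.3, 41.0, 37.4 and 20.2 CPM of Flot2 with PBS and 255, 255 and 239 CPM with IL6, a log2 fold change of 2.38 ± 0.30, in the cell type where Flot1 had 0.29. In Mo.6C+, Flot2 was 138, 78.1, 78.8, 94.0 and 83.4 CPM with PBS and 223, 373 and 371 with IL6 (1.77 ± 0.21). In MFpc it was 104, 114, 119, 110 and 107 with PBS and 212, 192 and 202 with IL6 (0.87 ± 0.09). The libraries of each pair of groups do not overlap in these 3 types. T.4 (0.93 ± 0.16), Treg (1.13 ± 0.22) and T.8 (0.87 ± 0.22) had positive values as well. In MZB, Flot2 was 25.3, 13, 20.9 and 25.8 CPM with PBS and 11.4, 19.4 and 8.67 with IL6, which overlap (−0.69 ± 0.31). Flot2 was called in 5 of 14 types, and 0.0753% of genes tested in all types were called raised in as many. As for Flot1, nothing is read from these counts, because the pair was chosen by the IL6 contrast. Its median log2 fold change with IL6 over the 14 types was 0.66.

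**Figure D2:**
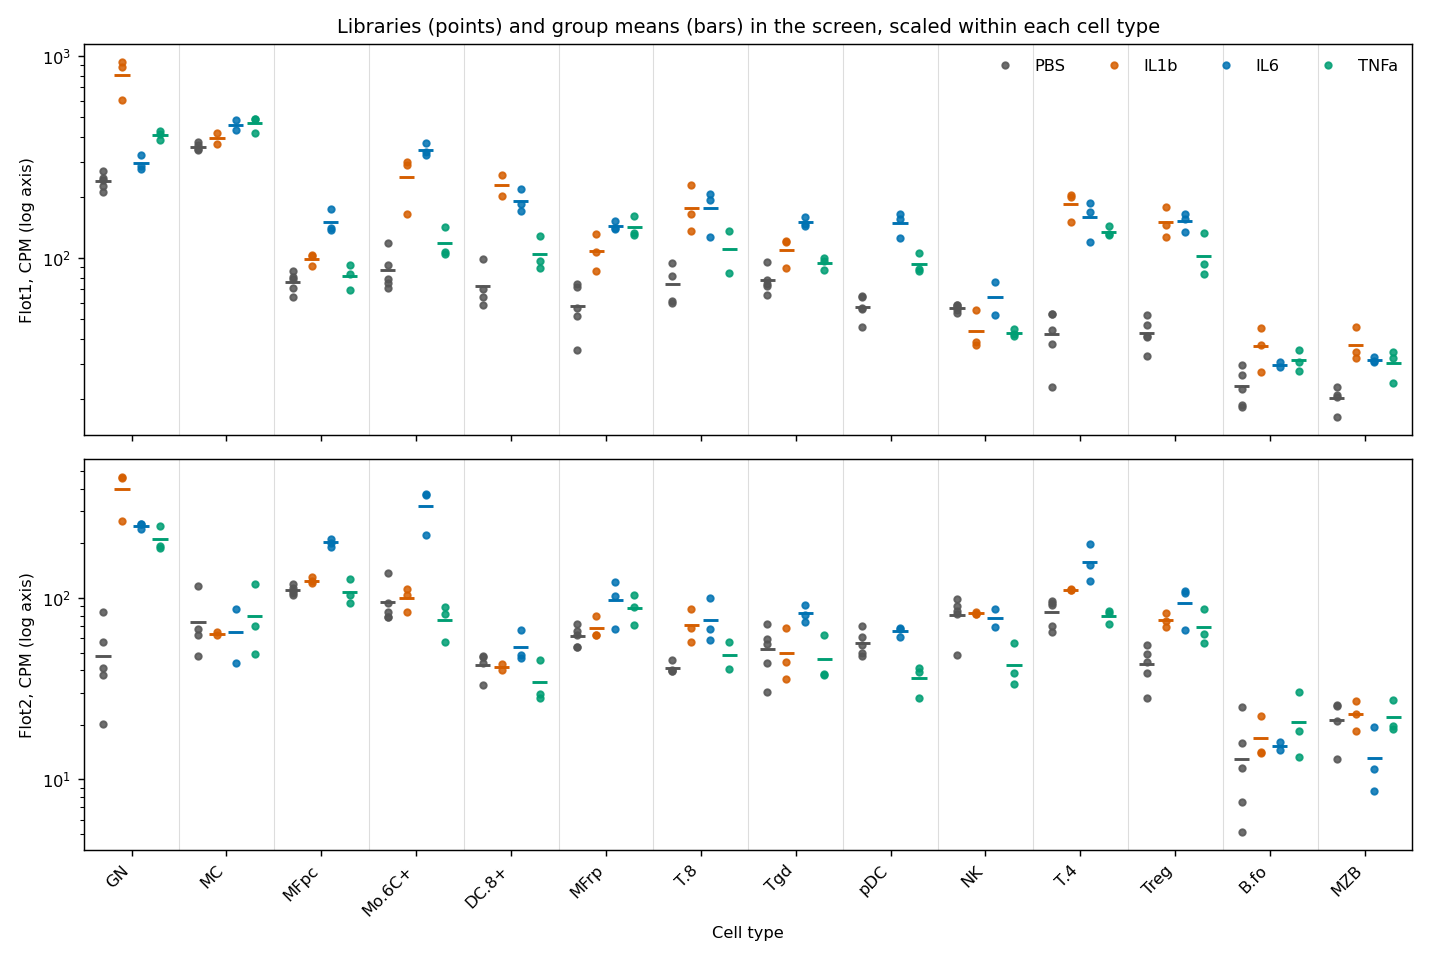
Flot1 and Flot2 in each library of the screen, as CPM on a log axis on each cell type's own scale, by treatment; points are libraries and short bars are group means. Flot1 with IL6 is above PBS without overlap in 12 of 14 types, and Flot2 in GN rises with each of the 3 cytokines.

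IL1b raised Flot1 in 9 of 13 cell types (edgeR quasi-likelihood test, adjusted p under 0.05 over all genes of the type) and lowered it in 0; 5.76% of all gene tests were called raised by IL1b and 4.26% lowered, and 0.363% of the 7996 genes tested in every type were raised in 9 or more. The log2 fold changes ran from −0.38 to 2.13 with a median of 0.90, against −0.01 over all gene tests, and 12 of 13 were positive. IL1b and TNFa are compared with the same PBS libraries as IL6, so these responses are not independent of the values that picked Flot1. The share of all genes called raised by IL1b was 20.7% in MFpc, 19.4% in Mo.6C+, 12.9% in GN, 6.64% in MFrp, 3.38% in DC.8+, 3.37% in T.4, 2.57% in MZB, 2.19% in Treg and 0.474% in T.8.

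The largest fitted Flot1 responses to IL1b were in CD4 T cells. T.4 rose from the PBS values given above to 151, 201 and 205 CPM (log2 fold change 2.13 ± 0.20, adjusted p = 2.73e-07). Treg rose to 127, 146 and 179 CPM (1.81 ± 0.18, adjusted p = 2.35e-06). In neither type did an IL1b library come near the PBS range. The summed level of 5 B cell markers was lower in these IL1b libraries, at 441 to 594 CPM against 695 to 765 with PBS in T.4 and 549 to 871 against 885 to 1331 in Treg. With TNFa it was 428 to 473 in T.4 and 528 to 563 in Treg. In each group 4 or 5 of the 5 were detected, with Ms4a1 at 0 in T.4 with PBS and in Treg with IL1b. The summed level of 5 T cell markers was also lower, at 2410 to 2650 CPM with IL1b and 2168 to 2302 with TNFa against 2940 to 3145 with PBS in T.4, and at 2112 to 2502 and 2152 to 2267 against 2660 to 3300 in Treg (5 of 5 detected in each group). With IL6 the T cell markers had 2395 to 2685 CPM in T.4 and 2506 to 2618 in Treg, below PBS as well (5 of 5 detected in both). In Treg the 5 monocyte markers were higher with IL1b, at 111 to 238 CPM against 47.5 to 108 with PBS (5 of 5 detected in both). The part of these shifts in the results of T.4 and Treg was not tested.

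Neutrophils had 271, 213, 243, 249 and 229 CPM of Flot1 with PBS and 605, 884 and 938 CPM with IL1b, a rise of 1.75 ± 0.14 (adjusted p = 7.5e-08). IL6 had given 323, 276 and 286 CPM in the same cells, so the IL1b libraries were above both other groups. In Mo.6C+, IL1b gave 166, 289 and 298 CPM (1.52 ± 0.19, adjusted p = 1.34e-05). In DC.8+, the 2 IL1b libraries had 204 and 259 CPM (1.66 ± 0.22, adjusted p = 0.000368). Without the 3 libraries with NK markers the DC.8+ value was 1.64 (adjusted p = 0.00372), and without the 2 with erythroid markers 1.76 (0.00768). In GN, the summed level of 5 neutrophil markers also moved, from 56717 to 89465 CPM with PBS to 155190 to 176080 with IL1b, 99495 to 119730 with IL6 and 159840 to 184750 with TNFa (5 of 5 detected in each group). The B cell markers in GN summed to 559 to 816 CPM with PBS, 143 to 317 with IL1b, 379 to 514 with IL6 and 136 to 180 with TNFa (5 of 5 detected with PBS and 4 of 5 with each cytokine, with Cd79b at 0 with IL1b and Ms4a1 at 0 with IL6 and TNFa). In Mo.6C+, they had 458 to 517 with PBS, 112 to 166 with IL1b, 233 to 358 with IL6 and 137 to 195 with TNFa. In DC.8+ they had 846 to 1033 with PBS, 305 to 404 with IL1b, 761 to 955 with IL6 and 367 to 744 with TNFa. In both types 5 of 5 were detected in each group. Markers of neutrophils, the type with the highest Flot1 with PBS, were higher in Mo.6C+ with IL1b, at 612 to 673 CPM, and with TNFa, at 668 to 977, than with PBS, at 410 to 489 (5 of 5 detected in each of these groups). In GN, the monocyte markers had 1334 to 1538 CPM with PBS and 2009 to 2464 with TNFa (5 of 5 and 3 of 5 detected, with Ccr2 and F13a1 at 0 with TNFa). In DC.8+, the platelet markers had 0 to 3.84 CPM with PBS and 22.3 to 32.7 with IL1b (3 of 5 detected in both, with Ppbp and Gp1bb at 0). The part of these shifts in the Flot1 and Flot2 results was not tested.

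Smaller rises of Flot1 with IL1b rest on single libraries. In T.8, values were 81.1, 59.9, 61.3 and 95.0 CPM with PBS and 136, 166 and 229 with IL1b (1.25 ± 0.24, adjusted p = 0.0331). The groups do not overlap, but the call was lost without IL1b library 2 or 3 or without PBS library 1, 2 or 3 (adjusted p between 0.0775 and 0.230). MFrp had 86.3, 107 and 132 CPM with IL1b (0.90 ± 0.22, adjusted p = 0.0150); the call was lost without IL1b library 2 or 3 or PBS library 1 (0.0503 to 0.140), and without the 3 PBS libraries rich in haemoglobin, where the value was 0.94 (adjusted p = 0.0682). With the 2 groups fitted alone, the calls in MFrp (adjusted p = 0.0654) and MZB (0.0534) were lost, which leaves 7 of 13 types. Neutrophil markers in MFrp were higher with IL1b, at 279 to 306 CPM against 69.8 to 181 with PBS (5 of 5 detected in both), and their part was not tested. MZB had 23.1, 21.1, 20.6 and 16.3 CPM with PBS and 32.0, 34.5 and 45.6 with IL1b (0.88 ± 0.21, adjusted p = 0.0199), lost without IL1b library 2 or 3 or PBS library 4 (0.0547 to 0.164). The B cell markers of MZB themselves summed to 13808 to 15674 CPM with IL1b and 18497 to 20327 with PBS (5 of 5 detected); their part was not tested. MFpc had 78.8, 63.9, 71.5, 86.6 and 81.0 with PBS and 104, 103 and 91.3 with IL1b (0.38 ± 0.12, adjusted p = 0.0158), lost without IL1b library 1 or 2 (0.0595 to 0.0900). In these 4 types every IL1b library was above every PBS library, as were 9.88% of all gene tests. The values that did not pass were 0.67 in B.fo (adjusted p = 0.256), 0.50 in Tgd (0.106), 0.13 in MC (0.792) and −0.38 in NK (0.396).

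IL1b raised Flot2 in 2 of 13 types and lowered it in 0; 21.1% of genes tested in every type were raised in 2 or more. In neutrophils, Flot2 rose from the PBS range of 20.2 to 83.2 CPM to 265, 466 and 459 CPM, a log2 fold change of 3.04 ± 0.30 (edgeR, adjusted p = 1.2e-06). This was the largest of the fitted flotillin responses in the screen. In Treg, PBS libraries had 44.2, 55.2, 38.6, 48.8 and 28.2 CPM and IL1b libraries 82.9, 68.8 and 74.4 (0.81 ± 0.22, adjusted p = 0.0472). The Treg groups do not overlap, but the call was lost without any of the 3 IL1b libraries or without PBS library 1, 3, 4 or 5 (0.0577 to 0.189), and with the 2 groups fitted alone (0.0516). T.8 (0.79, adjusted p = 0.174), T.4 (0.42, adjusted p = 0.162) and MFpc (0.17, adjusted p = 0.171) had IL1b libraries above all PBS libraries without passing the test. The median over the 13 types was 0.15, and Mo.6C+ had 0.08 ± 0.22 with IL1b (83.9, 104 and 112 CPM).

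TNFa raised Flot1 in 5 of 14 types and lowered it in 0; 8.26% of gene tests were called raised by TNFa, and 6.24% of the genes tested in every type were raised in 5 or more. By cell type, TNFa raised 18.5% of all genes in GN, 11.5% in MFrp, 7.23% in pDC, 3.6% in T.4 and 2.81% in Treg. In T.4 the TNFa libraries had 129, 144 and 132 CPM (log2 fold change 1.68 ± 0.20, adjusted p = 8.59e-06) and in Treg 133, 93.2 and 83.3 CPM (1.27 ± 0.18, adjusted p = 0.000143). MFrp rose to 130, 134 and 162 CPM (1.29 ± 0.22, adjusted p = 0.000631), and by 1.33 without the haemoglobin-rich PBS libraries (adjusted p = 0.00853). Platelet markers in MFrp ran from 20.3 to 179 CPM with TNFa and from 6.46 to 19.1 with PBS (4 of 5 detected in both, with Gp1bb at 0); their part was not tested. GN rose to 427, 385 and 410 CPM (0.76 ± 0.14, adjusted p = 0.000314) and pDC to 88.3, 106 and 86.3 CPM (0.70 ± 0.14, adjusted p = 0.00300). No TNFa library overlapped PBS in these 5 types (every TNFa library was above PBS in 11.6% of all gene tests), and each of the 5 calls held with any single library left out.

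Among the types that did not pass, Flot1 was 143, 107 and 105 CPM with TNFa in Mo.6C+ (0.44 ± 0.20, adjusted p = 0.0784) and 128, 96.3 and 89.0 in DC.8+ (0.51 ± 0.20, adjusted p = 0.113). Both overlap their PBS library 1, and without that library they passed (0.57, adjusted p = 0.0201, and 0.70, adjusted p = 0.0254). MC had 343, 363, 346 and 375 CPM with PBS and 488, 486 and 418 with TNFa, which do not overlap (0.38 ± 0.12, adjusted p = 0.0828). NK was the type with a negative value: PBS gave 57.6, 55.6, 53.6, 58.8 and 58.9 CPM and TNFa 41.1, 42.0 and 44.8, all lower, with −0.42 ± 0.19 and an adjusted p of 0.164.

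For Flot2, TNFa gave opposite directions in different cell types, with 1 type raised and 2 lowered; 50.6% of genes tested in every type were raised in 1 or more, and 7.95% of gene tests were called lowered (7.93% in NK and 7.18% in pDC). GN rose to 250, 195 and 189 CPM (2.14 ± 0.30, adjusted p = 2.37e-05). NK fell from 98.4, 48.6, 89.9, 84.8 and 81.5 CPM with PBS to 56.4, 38.7 and 33.6 with TNFa (−0.90 ± 0.22, adjusted p = 0.00822), although PBS library 2 lies within the TNFa range. The NK call was lost without TNFa library 3 (−0.75, adjusted p = 0.0516). Monocyte markers in NK had 644 to 733 CPM with TNFa and 797 to 986 with PBS (5 of 5 detected); their part was not tested. In pDC, 49.4, 70.4, 54.8, 47.8 and 61.0 CPM with PBS fell to 41.3, 28.0 and 38.9 without overlap, as in 11% of all gene tests with TNFa (−0.65 ± 0.18, adjusted p = 0.0185), lost without TNFa library 2 (−0.50, adjusted p = 0.117). In pDC, Flot1 rose and Flot2 fell with the same 3 TNFa libraries, in which B cell markers (5 of 5 detected) summed to 3001 to 3608 CPM against 3652 to 4982 with PBS; their part was not tested. Treg (0.68, adjusted p = 0.0883) and MFrp (0.52, adjusted p = 0.0986) did not pass, though Treg did without PBS library 2 (0.79, adjusted p = 0.0454). Mo.6C+ had 89.0, 81.4 and 57.4 CPM (−0.31 ± 0.22, adjusted p = 0.256).

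**Figure D3:**
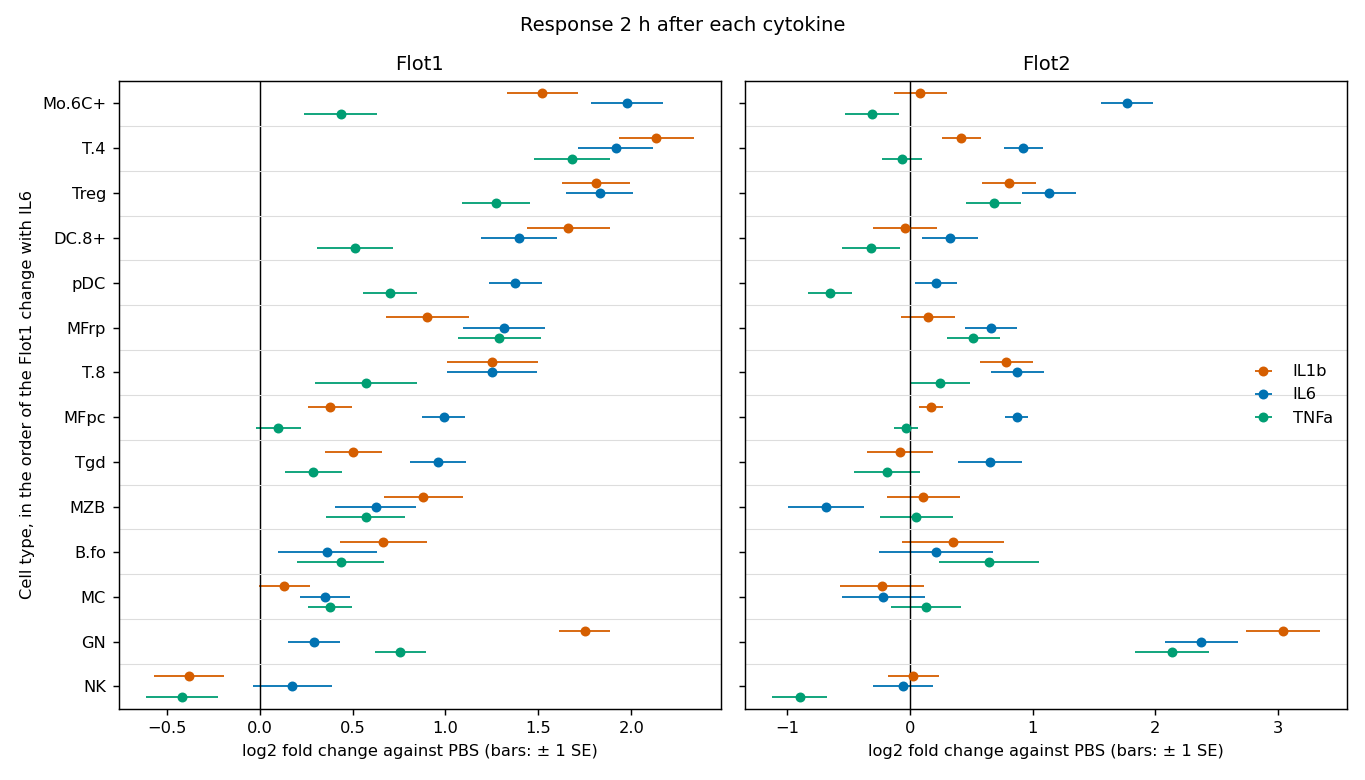
Log2 fold change against PBS, with its SE, for Flot1 and Flot2 with IL1b, IL6 and TNFa in each cell type. Flot1 runs from −0.42 to 2.13, and Flot2 in GN is at 2.14 or above with each of the 3 cytokines.

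IL1b and TNFa can be compared directly, in a contrast that does not use the IL6 or PBS levels, although those libraries share its scaling and its estimate of the spread. Flot1 was higher with IL1b in 3 of 13 types and lower in 0; 2.33% of gene tests were called higher with IL1b and 2.17% lower, and 1.90% of the genes tested in every type in 3 or more. The types were GN (0.99 ± 0.16, adjusted p = 0.000175), Mo.6C+ (1.09 ± 0.22, adjusted p = 0.00353) and DC.8+ (1.15 ± 0.24, adjusted p = 0.0146), where 11.5%, 7.23% and 2.11% of all genes were called higher. The DC.8+ call was lost without IL1b library 3 or without TNFa library 2 or 3 (0.0504 to 0.110), without the libraries with NK markers (1.10, adjusted p = 0.0721) and without those with erythroid markers (1.33, adjusted p = 0.0504). Treg (0.54, adjusted p = 0.467), T.4 (0.45, adjusted p = 0.622) and T.8 (0.68, adjusted p = 0.934) had positive values that did not pass, as did MFpc (0.28, adjusted p = 0.180). The values were negative in MFrp (−0.39, adjusted p = 0.502) and in MC (−0.25, adjusted p = 0.999). In MC both IL1b libraries lay below the TNFa libraries, as in 10.4% of all gene tests of this contrast. No gene was called in MC in either direction. B.fo, MZB, Tgd and NK had values between 0.04 and 0.31 that did not pass. Flot2 differed in 0 of 13 types by edgeR; 3 had an unadjusted p under 0.05, and DESeq2 called 2. The 3 were GN (0.91 ± 0.34, adjusted p = 0.0672), NK (0.93 ± 0.24, adjusted p = 0.0622) and T.4 (0.48 ± 0.18, adjusted p = 0.397). GN passed without IL1b library 1 (1.17, adjusted p = 0.0306) and NK without TNFa library 1 (1.17, adjusted p = 0.0374).

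IL6 set beside the other cytokines gives the following differences, as a description. In Mo.6C+, Flot1 was higher with IL6 than with TNFa by 1.54 ± 0.23 and Flot2 by 2.08 ± 0.25, and Flot2 was higher with IL6 than with IL1b by 1.69 ± 0.25. In MFpc, both genes were higher with IL6 than with IL1b (0.61 ± 0.13 for Flot1, 0.70 ± 0.11 for Flot2). In GN the sign for Flot1 was the other way: IL6 was below IL1b by −1.45 ± 0.16 and below TNFa by −0.46 ± 0.16. In Treg the difference in Flot1 between IL6 and IL1b was 0.02 ± 0.20.

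The balance of the 2 genes moved differently by cell type. In GN, the median Flot1 to Flot2 ratio per kb was 5.60 with PBS, 1.13 with IL6, 1.93 with IL1b and 1.87 with TNFa. In T.4 it was 0.546 with PBS, 0.908 with IL6, 1.71 with IL1b and 1.61 with TNFa, and in DC.8+ 1.53 with PBS and 5.24 with IL1b. In pDC it went from 0.963 with PBS to 2.21 with IL6 and 2.10 with TNFa. MFpc stayed at medians between 0.697 and 0.760 in all 4 groups.

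Whether a response depends on cell type was tested by an interaction term over all screen libraries. Flot1 depended on cell type for IL1b (adjusted p = 3.73e-17) and for TNFa (3.19e-10), and Flot2 for IL1b (2.43e-12) and TNFa (5.61e-09). Of 21905 genes, 22.8% passed this test for IL1b and 36.3% for TNFa, so dependence on cell type is common among the genes tested.

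In the TNFa time course, Flot1 was raised from 2 h on in monocytes and at 24 h in peritoneal macrophages; the difference between the cell types was not tested. All times are compared with PBS at 24 h, so the earlier times differ from their control in time as well as in treatment. In spleen monocytes (Mo.6C), Flot1 was 73.7 and 72.1 CPM with PBS, 174 and 174 at 2 h, 108 and 135 at 4 h, 138 and 170 at 8 h, and 135 and 154 at 24 h. Every TNFa library was above both PBS libraries, and Flot1 was raised at 4 of 4 times. How many of all genes lie apart in this way was not counted for the time course, and 2 libraries per group separate easily. The log2 fold changes were 1.25 ± 0.20 at 2 h (edgeR, adjusted p = 0.000464), 0.73 ± 0.20 at 4 h (0.0146), 1.08 ± 0.20 at 8 h (0.00241) and 0.98 ± 0.20 at 24 h (0.0150). The screen, with TNFa at 2 h in Mo.6C+, had given 0.44 ± 0.20 for Flot1 (adjusted p = 0.0784) and −0.31 ± 0.22 for Flot2 (adjusted p = 0.256), neither of which passed; the difference between the experiments was not tested. The shares of all genes called raised were 19.7% at 2 h, 15.9% at 4 h, 11.5% at 8 h and 2.74% at 24 h. The call at 24 h was lost without any of its 4 libraries (adjusted p between 0.0616 and 0.156) and that at 4 h without PBS library 1 or 2 or TNFa library 2 (0.0895 to 0.138). B cell markers (5 of 5 detected) had 494 to 613 CPM with PBS, 149 to 275 at 2 h, 96.5 to 99.9 at 4 h, 58.9 to 67.4 at 8 h and 548 to 2679 at 24 h. Neutrophil markers had 464 to 470 CPM with PBS, 1362 to 1651 at 2 h, 510 to 693 at 4 h and 348 to 437 at 8 h (5 of 5 detected at 2 and 8 h, and 4 of 5 with PBS and at 4 h, with Retnlg at 0). T cell markers had 4.31 to 9.18 CPM with PBS and 33.9 to 52.0 at 2 h (5 of 5 detected), and the monocyte markers themselves had 18379 to 18483 CPM with PBS, 10505 to 14211 at 2 h, 9856 to 9950 at 4 h, 10188 to 11076 at 8 h and 11633 to 13032 at 24 h (5 of 5 detected). The part of these shifts in the Flot1 and Flot2 results was not tested.

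Flot2 in the same monocytes was 85.6 and 86.9 CPM with PBS, 107 and 163 at 2 h, 63.7 and 70.7 at 4 h, 91.5 and 58.6 at 8 h, and 100.2 and 95.2 at 24 h. Against PBS it passed at 0 of 4 times by edgeR, with an unadjusted p of 0.0246 at 2 h (0.65 ± 0.25, adjusted p = 0.0586) as the only value under 0.05; DESeq2 called 2 h. Without TNFa 2 h library 1 that value was 0.96 (adjusted p = 0.0152). Against 2 h, Flot2 was lower at 4 h (−1.01 ± 0.26, adjusted p = 0.0275) and at 8 h (−0.85 ± 0.25, adjusted p = 0.0220), where 5.25% and 16.0% of genes were called lower. The 4 h call was lost without 2 h library 2 or either 4 h library (0.0788 to 0.173), and the 8 h call without 2 h library 2 or 8 h library 2 (0.136 to 0.173). At 24 h the value against 2 h was −0.47 (adjusted p = 0.166), and −0.77 without 2 h library 1 (adjusted p = 0.0433). The 2 libraries at 2 h are far apart, 107 and 163 CPM.

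In peritoneal macrophages Flot1 was 63.7 and 63.5 CPM with PBS, 74.8 and 56.4 at 2 h, 54.1 and 62.0 at 4 h, 99.0 and 78.5 at 8 h, and 188 and 138 at 24 h. It rose at 24 h (1.36 ± 0.21, adjusted p = 0.00179), where 3.81% of genes were called raised, and that call held with any single library left out. The values at 2 h (0.05 ± 0.21), 4 h (−0.13 ± 0.21) and 8 h (0.48 ± 0.21, adjusted p = 0.0997) did not pass. Against 2 h, the 24 h libraries were higher by 1.31 ± 0.21 (adjusted p = 0.000354), a comparison in which 17.2% of genes were called higher. The screen, with TNFa at 2 h in MFpc, had 92.2, 83.8 and 69.9 CPM and a fold change of 0.10 ± 0.12.

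Flot2 in these macrophages was 80.5 and 90.5 CPM with PBS, 98.2 and 87.5 at 2 h, 71.4 and 89.1 at 4 h, 128 and 143 at 8 h, and 143 and 128 at 24 h. The libraries at 8 and 24 h are above all the others, and the share of all genes with this order was not counted. Flot2 was raised at 8 h (0.66 ± 0.17, adjusted p = 0.0127; 15.6% of genes called raised) and at 24 h (0.66 ± 0.17, adjusted p = 0.0371). It was also higher than at 2 h at 8 h (0.54 ± 0.17, adjusted p = 0.0359; 13.2% of genes) and at 24 h (0.54 ± 0.17, adjusted p = 0.0278). Each of these 4 calls was lost without some library: at 8 h without PBS library 1 or 2 (0.0594 to 0.145), at 24 h without PBS library 1 or 2 or TNFa library 1 (0.138 to 0.317), against 2 h at 8 h without any of the 4 libraries (0.0589 to 0.243), and against 2 h at 24 h without 24 h library 1 or either 2 h library (0.0909 to 0.205). T cell markers in these libraries summed to at most 0.978 CPM and B cell markers to at most 4.52 CPM. Neutrophil markers had 373 to 375 CPM with PBS, 663 to 701 at 2 h, 285 to 288 at 8 h and 270 to 290 at 24 h (S100a9 was at 0 with PBS, Retnlg at 24 h, and both at 2 and 8 h); their part was not tested.

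LPS, the bacterial cell wall component sensed through TLR4, raised both flotillins in spleen monocytes. Flot1 was 98.3, 83.4 and 69.8 CPM in the controls and 192, 191 and 155 with LPS (1.10 ± 0.24, edgeR, adjusted p = 0.0113). Flot2 was 85.3, 75.1 and 70.4 CPM in the controls and 176, 168 and 159 with LPS (1.12 ± 0.22, adjusted p = 0.00700). In neither gene did the groups overlap, and the share of all genes without overlap was not counted. Of all genes, 10.2% were called raised. The Flot1 call was lost without LPS library 2 (1.07, adjusted p = 0.0553) or PBS library 3 (0.98, adjusted p = 0.0654), and the Flot2 call held without any single library. The ratio of Flot1 to Flot2 per kb had a median of 1.05 in the controls and 1.03 with LPS. B cell markers (5 of 5 detected) ran from 418 to 466 CPM in the controls and from 232 to 3828 with LPS, and neutrophil markers (5 of 5) from 240 to 453 and from 701 to 968; their part in the result was not tested.

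**Figure D4:**
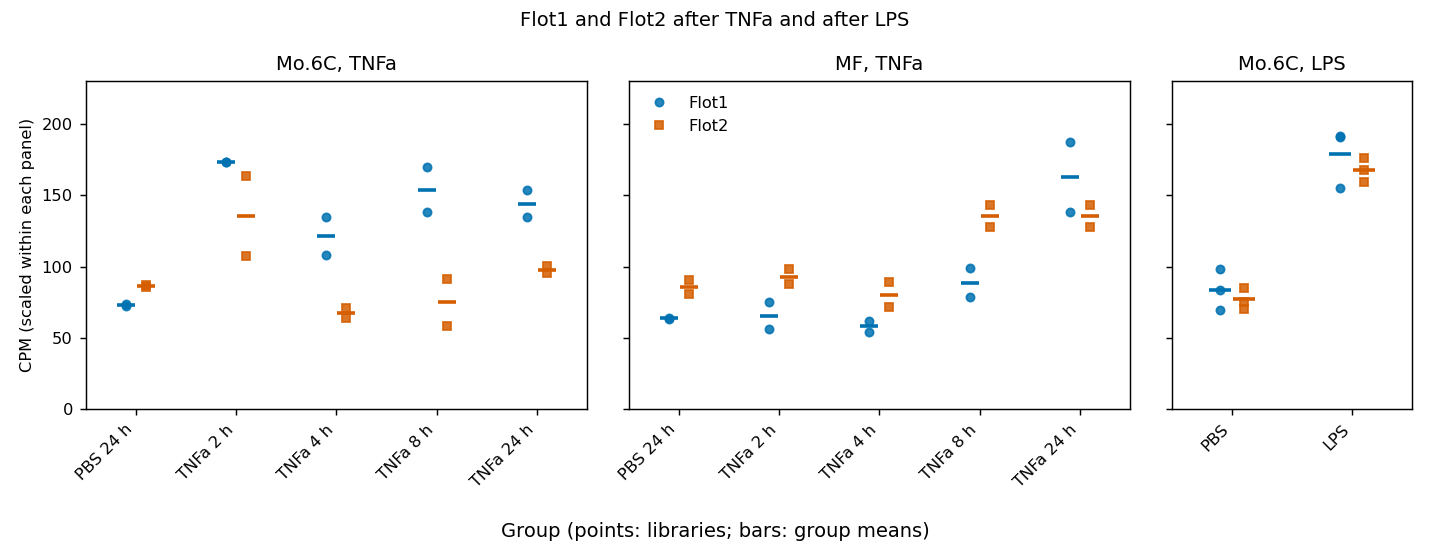
Flot1 and Flot2 as CPM in the TNFa time course of spleen monocytes and peritoneal macrophages (PBS at 24 h; TNFa at 2, 4, 8 and 24 h) and in the LPS experiment; points are libraries and short bars are group means. Flot1 is above PBS at every time in monocytes and at 138 CPM or more at 24 h in macrophages.

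Genes beside the flotillins were followed because the counting strand is not given in the sources used here; no exon of a neighbour within 50 kb overlaps an exon of either flotillin. Ier3, an early response gene that ends 307 bases before Flot1 on the same strand, was raised by IL1b in 5 of 9 types and by TNFa in 6 of 10. In GN, Ier3 had 31.6 ± 8.99 CPM with PBS (n = 5), 466 with IL1b, 465 with TNFa and 21.7 with IL6. Its median log2 fold change was 2.69 with IL1b, 3.04 with TNFa and 0.53 with IL6. Tubb5, a tubulin gene that lies 1130 bases past Flot1 on the other strand, was lowered by TNFa in 3 of 14 types. Of the 9 neighbours of Flot1, Ppp1r18os and Gm28033 were tested in no cell type. Over the others, 5 gene tests were raised and 4 lowered of 75 with IL1b (6.67% and 5.33%, against 5.76% and 4.26% of all gene tests). With IL6 it was 1 and 2 of 81 (1.23% and 2.47%, against 1.46% and 0.95%), and with TNFa 8 and 11 of 81 (9.88% and 13.6%, against 8.26% and 7.95%). Dhrs13, which ends 65 bases before Flot2 on the same strand, was raised by IL1b in 2 of 12 types and by IL6 in 2 of 13, and lowered by TNFa in 1 of 13. Its raised types were GN (3.90 ± 0.93, adjusted p = 0.00537) and MFpc (1.48 ± 0.46, adjusted p = 0.0155) with IL1b, and MFpc (2.27 ± 0.43, adjusted p = 0.00096) and Mo.6C+ (2.50 ± 0.56, adjusted p = 0.0134) with IL6.

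Of the other members of the SPFH family, few were called with IL6, as of all genes. Among the 9 listed SPFH genes, Stoml3 was tested in no cell type. Of 97 gene tests over the others, IL6 raised 2 and lowered 0 by edgeR, with 9 in each direction at an unadjusted p under 0.05. This is 2.06% raised, against 1.46% of all gene tests, with a median log2 fold change of 0.04, against −0.01. TNFa raised 5 and lowered 13 (5.15% and 13.4%, against 8.26% and 7.95%, with a median of −0.08 against −0.03). Of 90 tests, IL1b raised 2 and lowered 6 (2.22% and 6.67%, against 5.76% and 4.26%; median −0.01 against −0.01). Stom, encoding stomatin, was lowered by TNFa in 6 of 12 types, among them DC.8+ (−1.92 ± 0.21, adjusted p = 1.91e-05) and MFpc (−0.81 ± 0.10, adjusted p = 9.41e-07), and raised by IL6 in 2 of 12, GN (1.47 ± 0.44, adjusted p = 0.0440) and MFpc (0.30 ± 0.10, adjusted p = 0.0406). Stoml1 was lowered by TNFa in 4 of 14 types, among them Mo.6C+ (−1.93 ± 0.29, adjusted p = 3.97e-05). The lists and the genes in them were chosen with earlier results of these data known.

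Genes of IL6 signalling, 14 receptor subunits, kinases, STATs and feedback regulators, were followed next. With IL6, 28 of 194 gene tests were raised and 6 lowered (14.4% and 3.09%, against 1.46% and 0.95% of all gene tests; median 0.14 against −0.01). With IL1b, 89 of 180 were raised and 5 lowered (49.4% and 2.78%, against 5.76% and 4.26%; median 0.81 against −0.01). With TNFa, 109 of 194 were raised and 5 lowered (56.2% and 2.58%, against 8.26% and 7.95%; median 0.85 against −0.03). Stat3 rose with IL6 by 1.64 ± 0.20 in MC (adjusted p = 6.46e-05), where Flot1 had 0.35, and by 1.22 ± 0.09 in MFpc (adjusted p = 2.81e-08). Jak3 rose with IL6 by 1.38 ± 0.14 in T.4 (adjusted p = 4.79e-06) and 1.23 ± 0.15 in Mo.6C+ (adjusted p = 0.000136). Socs3, the feedback inhibitor of the receptor, rose with IL6 by 2.00 ± 0.40 in B.fo (adjusted p = 0.0382) and by 0.99 ± 0.15 in Treg (adjusted p = 0.00171). With LPS, 8 of 13 were raised and 1 lowered (median 1.02 against −0.06). Of all genes tested with LPS, 10.2% were called raised and 8.38% lowered.

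Of the coat proteins of caveolae, the other membrane domains rich in cholesterol, IL6 raised 0 and lowered 0 of 31 gene tests by edgeR, with 1 in each direction at an unadjusted p under 0.05 (1.46% and 0.95% of all gene tests; median −0.15 against −0.01). IL1b raised 8 and lowered 1 of 29 (27.6% and 3.45%, against 5.76% and 4.26%; median 0.03 against −0.01), and TNFa raised 5 and lowered 2 of 31 (16.1% and 6.45%, against 8.26% and 7.95%; median −0.13 against −0.03). Not every listed gene was tested in every cell type: the 13 types with IL1b gave 29 gene tests. Pacsin2, a membrane-bending protein of this list, was raised by IL1b in Mo.6C+ (2.03 ± 0.21, adjusted p = 1.62e-06), GN (1.80 ± 0.23, adjusted p = 1.69e-05) and DC.8+ (1.42 ± 0.25, adjusted p = 0.00272), and also in MFpc and MFrp. Most of the 8 tests raised by IL1b are thus of Pacsin2, and the 27.6% does not describe the coat genes as a group.

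Genes whose log2 fold changes with IL6 over the 14 types were most like those of Flot1 were Parp10 (Pearson r = 0.852) and Gbp7 (0.852), both interferon-responsive, Tmco4 (0.838), the endosomal SNARE Stx6 (0.827) and the ubiquitin-conjugating enzyme Ube2d3 (0.812), of 7971 genes tested in every type. The value for Flot2 was 0.346. Fold changes of all genes share their libraries within a cell type, and no p is given.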

How the data were processed

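RNA of 1000 sorted cells per library was sequenced by the authors. The deposited table holds raw counts per gene symbol. The submitters' processing notes name STAR 2.7.3a, featureCounts and the mm10 build; annotation, counting strand and featureCounts version are items not given in the sources used here. Of 55011 symbols, 52936 are in GENCODE M21. Libraries were grouped by their titles; 158 titles name spleen where the tissue label says peritoneal cavity, and the titles were followed.

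Counts were tested with edgeR 4.0.16 in R 4.3.3 (TMM scaling, filterByExpr, quasi-likelihood test), with 1 fit per cell type or experiment over all its groups, Benjamini-Hochberg adjustment over all genes tested and a threshold of 0.05. SE is the log2 fold change divided by the square root of F. CPM are counts per 1000000 of the TMM-scaled library within the fit; PBS levels across cell types use TMM over all PBS libraries, a different scale. Dependence on cell type was an interaction term over all screen libraries.

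Named genes are the flotillins, genes within 50 kb of each, at most 2 members per list and comparison with the smallest adjusted p, the 5 genes most like each flotillin by Pearson correlation (mean of at least 10 CPM with PBS), and genes raised by IL6 in as many types as Flot1 or 1 more or fewer. The members and lists were chosen with earlier results of these data known. Alternatives were DESeq2 1.42.0, median-ratio size factors, no filter, only the 2 groups compared, a replicate block, each library left out in turn, and leaving out libraries that earlier results of these data had shown to carry markers of other cells. The fits were tested on simulated data. None of 251 replicate pairs was identical (0 pairs). RefSeq promoters were searched on both strands.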

Additional observations from a re-analysis of the deposited data

Results flagged for a closer look

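Of 28 groups of 4 or 5 libraries tested for a library far from the rest, 2 had one; chance gives about 1 in 20 groups. Flot2 with PBS in Mo.6C+ was 138 CPM in library 1, against 78.1 to 94.0 in the other 4. Flot2 with PBS in T.8 was 45.5 CPM in library 3, against 39.4 to 40.0 in the other 3.

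The responses differed between cell types by the interaction test over all screen libraries. For Flot1 the adjusted p (edgeR) was 3.73e-17 with IL1b and 3.19e-10 with TNFa. For Flot2 it was 2.43e-12 with IL1b and 5.61e-09 with TNFa. The Flot2 fold changes ran from −0.23 to 3.04 with IL1b and from −0.90 to 2.14 with TNFa.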

How the results depend on the processing

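Over the alternatives run, no called flotillin result changed sign. Values that were not called did: with a library left out, Flot1 in macrophages at 2 h ran from −0.16 to 0.25 and Flot2 in Mo.6C+ with IL1b from −0.01 to 0.26. For the counts of cell types or times, the LPS values and the dependence on cell type, 690 refits held, 24 counts moved and 2 tests no longer passed. A count that differed from the main one by a small factor was taken as held. Flot1 raised by IL1b in 7 types in place of 9 is among these, so the 690 are not all unchanged. For single comparisons and PBS levels, 1535 refits held, 64 lost the call, 19 gained it and 24 values moved. The count of cell types with Flot2 raised by IL1b was 2, and 1 with only the 2 groups compared in the fit or without any of 7 Treg libraries. Flot2 differed between IL1b and TNFa in 0 types, in 2 by DESeq2, in 2 with no filter on low counts, in 1 with only the 2 groups compared, and in 0 to 1 with a library left out. In the monocyte time course, Flot2 was called at 0 times, at 1 with median-ratio size factors and 1 by DESeq2, and at 0 to 1 with a library left out; Flot1 went from 4 times to 2 without PBS library 1 or 2, so 2 to 4. In macrophages, Flot2 was called at 2 times, at 1 with only the 2 groups compared, and at 0 to 2 with a library left out. Flot1 with LPS ran from 0.98 to 1.23 with a library left out, with adjusted p 0.0553 without LPS library 2 and 0.0654 without PBS library 3. Flot1 was raised by IL1b in 9 types, and in 7 with only the 2 groups compared. Leaving out libraries was run for the flotillins only, not for other genes.

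Same-numbered libraries do not deviate together: over 263 pairs in 17 experiments and cell types, correlations of deviations ran from −0.282 to 0.328, and 0 of 17 had all pairs above 0.1. With the replicate number as a block, Flot1 was raised by IL1b in 7 of 13 types (T.8, adjusted p = 0.110, and MZB, 0.0768, lost) and Flot2 in 1, and Flot2 differed between IL1b and TNFa in 1. On simulated counts with these depths and group sizes, changes of 2-fold were recovered for 98% of genes in MFpc with IL1b. The share was 47% in T.8 with TNFa, 41% in monocytes at 2 h and 20% with LPS. Changes of 4-fold were recovered for 100%, 97%, 100% and 95%, and 6.6%, 5.88%, 6% and 4.17% of the calls were false. The simulated spread was set by the mean level alone, and 100 genes were changed per fold, none of them of low level. Recovery in the real libraries may therefore differ.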

Other observations

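Genes of the uropod, the rear pole where flotillins cap, and Src-family kinases of membrane domains gave the following values. Spn, encoding the sialomucin CD43, fell with TNFa in Tgd (−1.28 ± 0.18, SE; edgeR, adjusted p = 0.000153), NK (−1.16 ± 0.12, adjusted p = 1.6e-06) and T.4 (−1.03 ± 0.14, adjusted p = 2.61e-05). Selplg, the P-selectin ligand, fell with TNFa in NK (−1.13 ± 0.08, adjusted p = 2.07e-08) and GN (−1.0 ± 0.11, adjusted p = 2.23e-06). Ezr, encoding ezrin, rose with TNFa in MFpc (2.05 ± 0.11, adjusted p = 6.68e-12) and MFrp (1.61 ± 0.23, adjusted p = 0.0001). Over the whole uropod list, TNFa raised 26 and lowered 27 of 186 gene tests (14% and 14.5%, against 8.26% and 7.95% of all gene tests). IL1b raised 15 and lowered 17 of 174 (8.62% and 9.77%, against 5.76% and 4.26%), and IL6 raised 3 and lowered 9 of 186 (1.61% and 4.84%, against 1.46% and 0.95%). The median log2 fold changes were −0.04, −0.09 and −0.14, against −0.03, −0.01 and −0.01 over all gene tests.

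Of the membrane-domain kinases and adaptors, TNFa raised 21 and lowered 20 of 143 gene tests (14.7% and 14%; median log2 fold change −0.11). IL1b raised 18 and lowered 10 of 132 (13.6% and 7.58%; median −0.07), and IL6 raised 3 and lowered 5 of 143 (2.1% and 3.5%; median −0.02), to be read against the same shares and medians of all gene tests. Fgr, a kinase of myeloid cells, rose with IL6 in MFpc (0.88 ± 0.12, adjusted p = 4.72e-05) and MFrp (1.10 ± 0.18, adjusted p = 0.00840). Among the neighbours of Flot2, TNFa raised 2 and lowered 1 of 55 gene tests (3.64% and 1.82%; median −0.01), IL1b raised 3 and lowered 1 of 51 (5.88% and 1.96%; median −0.13), and IL6 raised 2 and lowered 0 of 55 by edgeR, 6 and 2 at an unadjusted p under 0.05 (3.64% raised; median −0.04).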
